A study of Mus musculus with 12 samples.

Results

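The transcriptome of mouse embryos heterozygous for a Runx2 mutation (Runx2+/-) was compared with that of wild-type (WT) embryos over both treatments at once. All 12 libraries of the series entered this comparison: 6 Runx2+/- libraries against 6 WT libraries, with treatment as a covariate. Each library held RNA from the calvaria, which forms the roof of the skull, of C57BL/6 embryos at embryonic day 17.5. The 4 groups were WT vehicle, Runx2+/- vehicle, WT MS-275 and Runx2+/- MS-275, with 3 libraries each. MS-275 (entinostat) inhibits class I histone deacetylases, and at 10 mg/kg it was injected into the pregnant dams on days 14.5 and 16.5 of gestation, after mating at 8 weeks of age. The labels do not say which part of Runx2 the mutant allele lacks, whether any transcript of that allele remains, or whether replicates were separate embryos or litters. The p-values therefore measure the spread between these libraries, which may be technical. The whole comparison was repeated with 11 libraries, leaving out Runx2+/- MS-275 replicate 3.

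RUNX2 is the transcription factor that commits mesenchymal cells to the osteoblast lineage. It binds DNA through its Runt domain, is stabilised by its partner CBFB, and activates genes of the bone matrix. Membranous bones such as the calvaria depend on its dose, and loss of 1 copy is known to delay closure of the fontanelles and sutures in mice and in human cleidocranial dysplasia. The comparison asks which calvarial transcripts follow the Runx2 genotype, with or without MS-275.

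RUNX proteins recognise the core TGTGGT, read on the other strand as ACCACA. The promoters shown here are those of Runx2, of Bglap and Spp1 (osteocalcin and osteopontin, a pair of matrix proteins that RUNX2 activates) and of Ebf3, the transcript with the smallest genotype p. Each window runs from 250 bases before to 50 bases after the annotated start, in lower case with ACCACA in capitals (RefSeq, GRCm38.p6), and lies at chr17:44814578-44814877, minus strand (Runx2), chr3:88384417-88384716, minus strand (Bglap), chr5:104434861-104435160, plus strand (Spp1) and chr7:137314396-137314695, minus strand (Ebf3).
Runx2: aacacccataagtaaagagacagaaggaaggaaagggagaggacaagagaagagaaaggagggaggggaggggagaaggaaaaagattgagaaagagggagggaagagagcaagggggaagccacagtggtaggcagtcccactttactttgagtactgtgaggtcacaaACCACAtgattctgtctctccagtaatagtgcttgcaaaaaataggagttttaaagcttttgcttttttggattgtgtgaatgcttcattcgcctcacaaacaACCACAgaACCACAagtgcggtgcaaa
Bglap: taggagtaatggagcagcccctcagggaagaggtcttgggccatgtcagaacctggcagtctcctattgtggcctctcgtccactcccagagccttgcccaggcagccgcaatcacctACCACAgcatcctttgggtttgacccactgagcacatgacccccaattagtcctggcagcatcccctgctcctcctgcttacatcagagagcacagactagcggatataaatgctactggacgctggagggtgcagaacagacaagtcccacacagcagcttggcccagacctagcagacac
Spp1: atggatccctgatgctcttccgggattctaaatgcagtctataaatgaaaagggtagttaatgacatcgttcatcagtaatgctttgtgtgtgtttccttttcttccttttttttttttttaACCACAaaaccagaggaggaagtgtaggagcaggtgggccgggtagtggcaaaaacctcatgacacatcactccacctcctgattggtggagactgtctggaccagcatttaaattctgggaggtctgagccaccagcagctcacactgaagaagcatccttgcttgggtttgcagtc
Ebf3: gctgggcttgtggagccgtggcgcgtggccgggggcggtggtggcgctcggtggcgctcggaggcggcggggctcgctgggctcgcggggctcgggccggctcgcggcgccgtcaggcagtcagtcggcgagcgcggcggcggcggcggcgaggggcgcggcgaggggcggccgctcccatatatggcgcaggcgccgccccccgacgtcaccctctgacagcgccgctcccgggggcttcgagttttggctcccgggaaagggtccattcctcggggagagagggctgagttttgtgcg
The Runx2 window holds 3 matches, the windows of Bglap and Spp1 hold 1 each, and that of Ebf3 holds 0. A second Spp1 window, at a later annotated start, and the window of Ibsp (bone sialoprotein, another RUNX2 target) hold 0 as well.

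Between 13307456 and 19399760 reads were counted in genes per library. Bone matrix transcripts were present in every library: in normalised CPM (reads of a gene relative to all counted reads of its library, TMM-scaled), the lowest values were 1105 for Col1a1 (collagen I) and 927 for Sparc (osteonectin), both in Runx2+/- MS-275 replicate 3. Runx2+/- MS-275 replicate 3 stood apart. On the first principal component (74.2% of the variance) it lay at -79.4, while the other 5 MS-275 libraries lay between 64.7 and 97.8 and the vehicle libraries between -95.3 and 5.74. Its epidermal, lens and neuronal marker sums lay within the range of the vehicle libraries, as given with the bone genes. By these values it goes against its treatment label, which could not be checked here, and every value with 12 libraries rests on that label. Other sums of this library matched neither treatment. Its mitochondrially encoded genes summed to 70347.5 CPM, against 32245.6 to 44225.1 in vehicle and 153154 to 394515 in the other MS-275 libraries. Its bone matrix and RUNX2 target sums (5247 and 4342 CPM) lay below the lowest vehicle library (6042 and 9358 CPM). WT vehicle replicate 3 and Runx2+/- vehicle replicate 3 were low in lens and neuronal markers. Xist counts exceeded those of 4 Y-linked genes in 3 of 6 WT and 5 of 6 Runx2+/- libraries, the 3 Runx2+/- MS-275 libraries among them. The part of sex in the differences was examined only through a Y-linked covariate. The genotype test called 0 genes with it and 0 without it, so the calls cannot show that part. Genes with an unadjusted p below 0.05 (edgeR) numbered 259 with the covariate and 979 without. Whether sex accounts for that difference was not tested.

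No transcript passed the genotype test. Of 17967 genes tested by edgeR's quasi-likelihood F test with Benjamini-Hochberg adjustment, 0 (0%) had an adjusted p below 0.05, and the smallest adjusted p was 0.755. At an unadjusted p below 0.05 there were 979 genes (5.45% of those tested), 551 higher and 428 lower in Runx2+/-. In the repeat with 11 libraries, 0 of 18216 genes (0%) passed, the smallest adjusted p was 0.925, and 916 (5.03%) had an unadjusted p below 0.05. DESeq2 and limma-voom with sample quality weights also called 0 genes with 12 libraries (1508 and 1126 at an unadjusted p below 0.05) and with 11 (1092 and 1021).

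The typical fold change was about as large as its error. The median absolute log2 fold change over all genes tested was 0.22, the median standard error (SE) was 0.26, and the median signed log2 fold change was 0.04. In the same fit the treatment term called 6384 genes (35.5%). The genotype difference was also tested for a dependence on treatment: the interaction called 0 of 17967 genes (0%) by edgeR, with 953 at an unadjusted p below 0.05 and a smallest adjusted p of 0.873. Within the treatments 0 genes passed. An unadjusted p below 0.05 was reached by 55 genes (0.306%) in vehicle and by 2832 (15.8%) in MS-275, 2108 of them higher, or by 1403 (7.7%) in MS-275 without Runx2+/- MS-275 replicate 3. The count for the interaction depended on the tool. DESeq2 called 40 genes and limma-voom with sample quality weights 606, against 7 and 0 when the same tests were run without Runx2+/- MS-275 replicate 3, a repeat chosen after seeing the data.

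Runx2 itself, which lies on chromosome 17 (ENSMUSG00000039153, chr17:44495987-44814797, minus strand, GRCm38), was not lower in all heterozygous libraries. Its level was 45.5, 42.4 and 46.1 CPM in WT with vehicle, 65.3, 32.8 and 58.1 CPM in Runx2+/- with vehicle, 111, 131 and 88.2 CPM in WT with MS-275 and 84.1, 93.5 and 34.1 CPM in Runx2+/- with MS-275. In vehicle, 2 of the 3 Runx2+/- libraries lay above every WT library and replicate 2 lay below all of them. In MS-275, Runx2+/- replicate 2 lay above WT replicate 3 and the other 2 Runx2+/- libraries lay below all 3 WT libraries, replicate 3 by the widest margin.

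The additive fit gave Runx2 a log2 fold change of -0.21 (SE 0.28, 95% interval -0.81 to 0.39, edgeR adjusted p = 0.806), Runx2+/- over WT. A level in proportion to 1 allele in 2 would be -1 on this scale, which lies outside the interval. Without Runx2+/- MS-275 replicate 3 the value was -0.01. The separate values were 0.22 in vehicle and -0.64 in MS-275 (interaction adjusted p = 0.873 by edgeR). The exact permutation test within treatments (two-sided, 400 relabellings, smallest possible p 0.005) gave a mean difference of -0.29 in log2(CPM + 1) and p = 0.425. With 11 libraries and 200 relabellings the exact permutation p was 0.74. Reads from a mutant allele that is still transcribed would be counted here as Runx2, so the level is no check of the genotype labels. Runx2 also shares bases with Supt3 and with the antisense transcript Runx2os1, and the sources used here do not state whether reads were counted by strand.

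**Figure D1:**
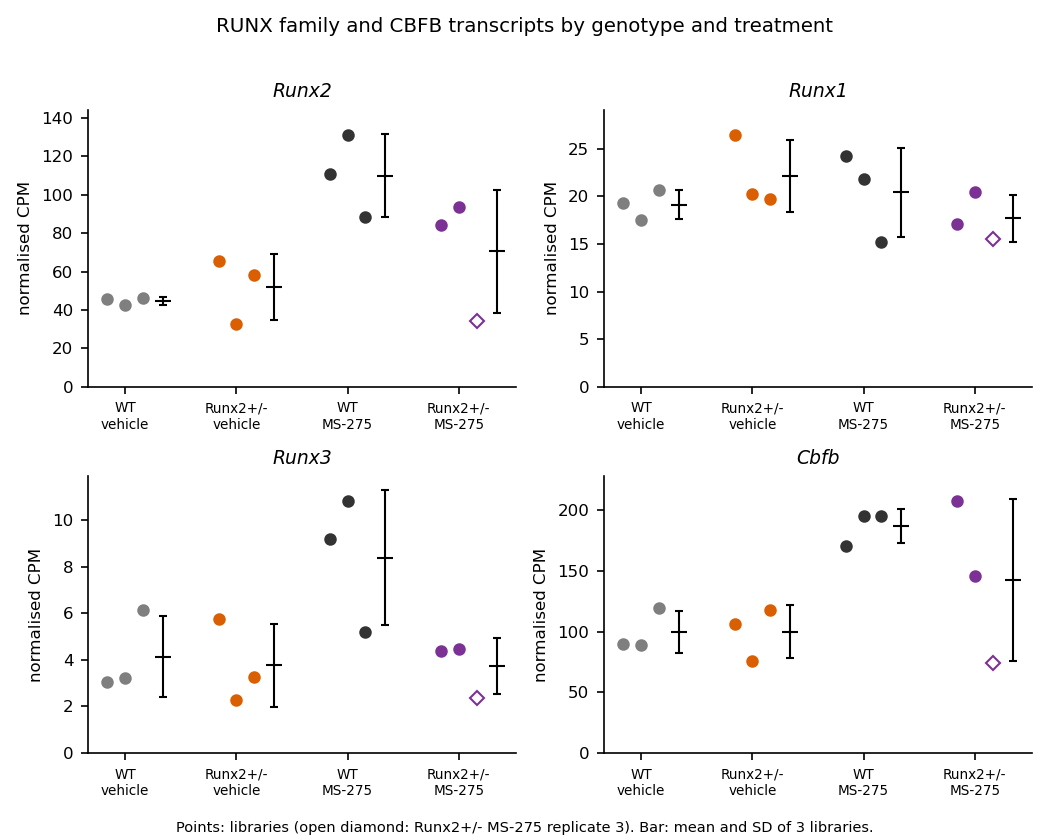
Normalised CPM (linear axes from 0) of Runx2, Runx1, Runx3 and Cbfb in each of the 12 libraries by group, with the mean and SD of 3 libraries beside the points; the open diamond is Runx2+/- MS-275 replicate 3. Runx2 overlaps between genotypes in both treatments, and Runx3 lies at 4.47 CPM or lower in every Runx2+/- MS-275 library against 5.18 CPM or higher in WT MS-275.

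Among the other members, Runx1, best known from blood stem cells, stood at 0.0017 (log2, SE 0.16, 95% interval -0.34 to 0.34) with an exact permutation p of 0.965. Runx3, a family member expressed in cartilage and lymphocytes, measured 3.03, 3.23 and 6.13 CPM in WT with vehicle, 5.73, 2.28 and 3.26 CPM in Runx2+/- with vehicle, 9.18, 10.8 and 5.18 CPM in WT with MS-275 and 4.37, 4.47 and 2.35 CPM in Runx2+/- with MS-275. Its 3 Runx2+/- MS-275 libraries lay below the 3 WT MS-275 libraries, while the vehicle groups overlapped. The log2 fold change of Runx3 was -0.65 (SE 0.35), with an exact permutation p of 0.075, or 0.3 after Benjamini-Hochberg adjustment over the 4 genes. It was -0.48 with 11 libraries (exact permutation p = 0.15). Cbfb, the shared partner of all 3 RUNX proteins, stood at -0.19 (SE 0.23, exact permutation p = 0.39) and at -0.03 without Runx2+/- MS-275 replicate 3. None of the 4 passed, and none did in any of the 23 alternative fits.

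Since no gene passed, the 10 genes with the smallest unadjusted p in each direction are described by their values. Ebf3 (ENSMUSG00000010476, chr7:137193673-137314445, minus strand, GRCm38), a helix-loop-helix transcription factor of the early B-cell factor family, had the smallest p of all genes tested (0.00083, edgeR adjusted p = 0.755). Its level was 60.2, 57.1 and 63.3 CPM in WT with vehicle, 74.8, 88.6 and 76.6 CPM in Runx2+/- with vehicle, 28.1, 21.9 and 22.4 CPM in WT with MS-275 and 33.6, 40.7 and 51.5 CPM in Runx2+/- with MS-275. Every Runx2+/- library lay above every WT library of the same treatment, and MS-275 libraries lay below vehicle libraries of their genotype. The log2 fold change of Ebf3 was 0.60 (SE 0.13, 95% interval 0.31 to 0.90), 0.41 in vehicle and 0.80 in MS-275, and 0.50 with 11 libraries.

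The related Ebf2 (ENSMUSG00000022053, chr14:67233292-67430918, plus strand), which marks osteoblast progenitors and brown fat precursors, measured 35.5, 35 and 32.2 CPM in WT with vehicle, 45.5, 42.4 and 42.3 CPM in Runx2+/- with vehicle, 13.6, 11.4 and 8.45 CPM in WT with MS-275 and 17.2, 23 and 34 CPM in Runx2+/- with MS-275. It had the same order of groups as Ebf3, with no overlap between genotypes in either treatment, and Runx2+/- MS-275 replicate 3 was the highest MS-275 library. The log2 fold change of Ebf2 was 0.74 (SE 0.21), or 0.56 without that library.

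Zkscan8 (ENSMUSG00000063894, chr13:21513222-21531120, minus strand), a zinc-finger protein with a KRAB and a SCAN domain, had 56.3, 51 and 47.5 CPM in WT and 59.8, 62.9 and 73.7 CPM in Runx2+/- in vehicle and 50.5, 54.5 and 61.8 CPM in WT and 85.3, 77.3 and 72.9 CPM in Runx2+/- in MS-275. The genotypes did not overlap in either treatment, and the log2 fold change (0.42, SE 0.10) was nearly the same with 11 libraries (0.43). For Eya4, a transcriptional coactivator with phosphatase activity, the values were 21.9, 23.8 and 24.4 CPM in WT and 29.9, 23.5 and 43.6 CPM in Runx2+/- in vehicle and 14.8, 11.9 and 13.5 CPM in WT and 20.7, 33.3 and 25.5 CPM in Runx2+/- in MS-275. Here Runx2+/- vehicle replicate 2 lay among the WT libraries, and the MS-275 groups did not overlap. Eya4 stood at 0.73 (SE 0.18) with 12 libraries and 0.71 with 11.

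Among the 10 ranked higher were also genes known from nerve and glia. Slc5a7, the choline transporter of cholinergic neurons, measured 2.99, 3.75 and 1.68 CPM in WT with vehicle, 4.39, 6.24 and 4.58 CPM in Runx2+/- with vehicle, 0.521, 0.491 and 0.863 CPM in WT with MS-275 and 1.49, 4.23 and 3.31 CPM in Runx2+/- with MS-275. It is a low transcript whose genotypes did not overlap in either treatment (log2 fold change 1.51, SE 0.38). Slc5a7 also lies on chromosome 17, 9484 kb from the Runx2 start. Gpr37, a receptor abundant in myelinating glia, measured 1.76, 1.23 and 1.29 CPM in WT and 3.16, 6.54 and 5.75 CPM in Runx2+/- in MS-275, where the genotypes did not overlap, and overlapped in vehicle (1.12, SE 0.31). The remaining higher-ranked genes were Clmn (calmin, 0.51), Ctnnal1 (alpha-catulin, 0.44), Ccdc191 (0.44) and Abca8b, a membrane transporter (0.70), and all but Abca8b separated the genotypes in both treatments.

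Among the 10 genes ranked lower, Fscn1 (ENSMUSG00000029581, chr5:142960343-142973185, plus strand), which bundles actin filaments, had 163, 177 and 196 CPM in WT with vehicle, 140.3, 138 and 127 CPM in Runx2+/- with vehicle, 142, 112 and 85 CPM in WT with MS-275 and 61.7, 77.3 and 50.7 CPM in Runx2+/- with MS-275. No Runx2+/- library reached the lowest WT library of its treatment. Its log2 fold change was -0.62 (SE 0.16), -0.40 in vehicle and -0.84 in MS-275 (edgeR adjusted p = 0.755). Plekho1 (CKIP-1, ENSMUSG00000015745, chr3:95988429-95996001, minus strand), a pleckstrin-homology protein known to restrain bone formation, measured 36.7, 38.2 and 46.2 CPM in WT with vehicle, 34.7, 32.1 and 33.5 CPM in Runx2+/- with vehicle, 42, 42.5 and 42.6 CPM in WT with MS-275 and 30.4, 33.4 and 33.6 CPM in Runx2+/- with MS-275. The 6 Runx2+/- values spanned 30.4 to 34.7 CPM and the 6 WT values 36.7 to 46.2 CPM, so that the genotypes separated even across treatments, by a log2 fold change of -0.33 (SE 0.09) with 12 libraries and -0.33 with 11.

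Dlx5 (ENSMUSG00000029755, chr6:6877805-6882085, minus strand), a homeobox factor of osteoblasts that acts upstream of Runx2 and Sp7, was the ranked gene with the closest tie to bone. Its level was 17.7, 16.3 and 18.9 CPM in WT with vehicle, 17.8, 12.4 and 12.2 CPM in Runx2+/- with vehicle, 27.7, 27.2 and 19.4 CPM in WT with MS-275 and 12.2, 13.8 and 9.31 CPM in Runx2+/- with MS-275. All 3 Runx2+/- MS-275 libraries lay below WT, whereas in vehicle Runx2+/- replicate 1 lay among the WT libraries. Dlx5 stood at -0.70 (SE 0.19, unadjusted p = 0.00368, edgeR adjusted p = 0.755), with -0.32 in vehicle, -1.08 in MS-275 and -0.58 with 11 libraries.

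Chac1, an enzyme that degrades glutathione and a target of ATF4, had the widest fold change of the 10 (-1.71, SE 0.47). In MS-275 it measured 4.23, 7.94 and 7.25 CPM in WT and 1.21, 0.957 and 0.566 CPM in Runx2+/-, and in vehicle, where the genotypes overlapped, 1.32, 1.38 and 2.27 CPM in WT and 0.740, 1.16 and 1.38 CPM in Runx2+/-. Atf4 itself measured 202, 240.2 and 238 CPM in WT and 179, 119.6 and 98.5 CPM in Runx2+/- in MS-275 and stood at -0.47 (SE 0.20, unadjusted p = 0.0419). The others were B3gat3, which builds the linker of glycosaminoglycan chains (-0.43), Atp6v0b of the vacuolar proton pump (-0.38), Gnb2, a G-protein beta subunit (-0.45), the small GTPase Rab35 (-0.37), the adaptor Bcar1 (p130Cas, -0.44) and Mpnd (-0.44). Of these 6, Atp6v0b, Gnb2 and Rab35 separated the genotypes in both treatments.

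**Figure D2:**
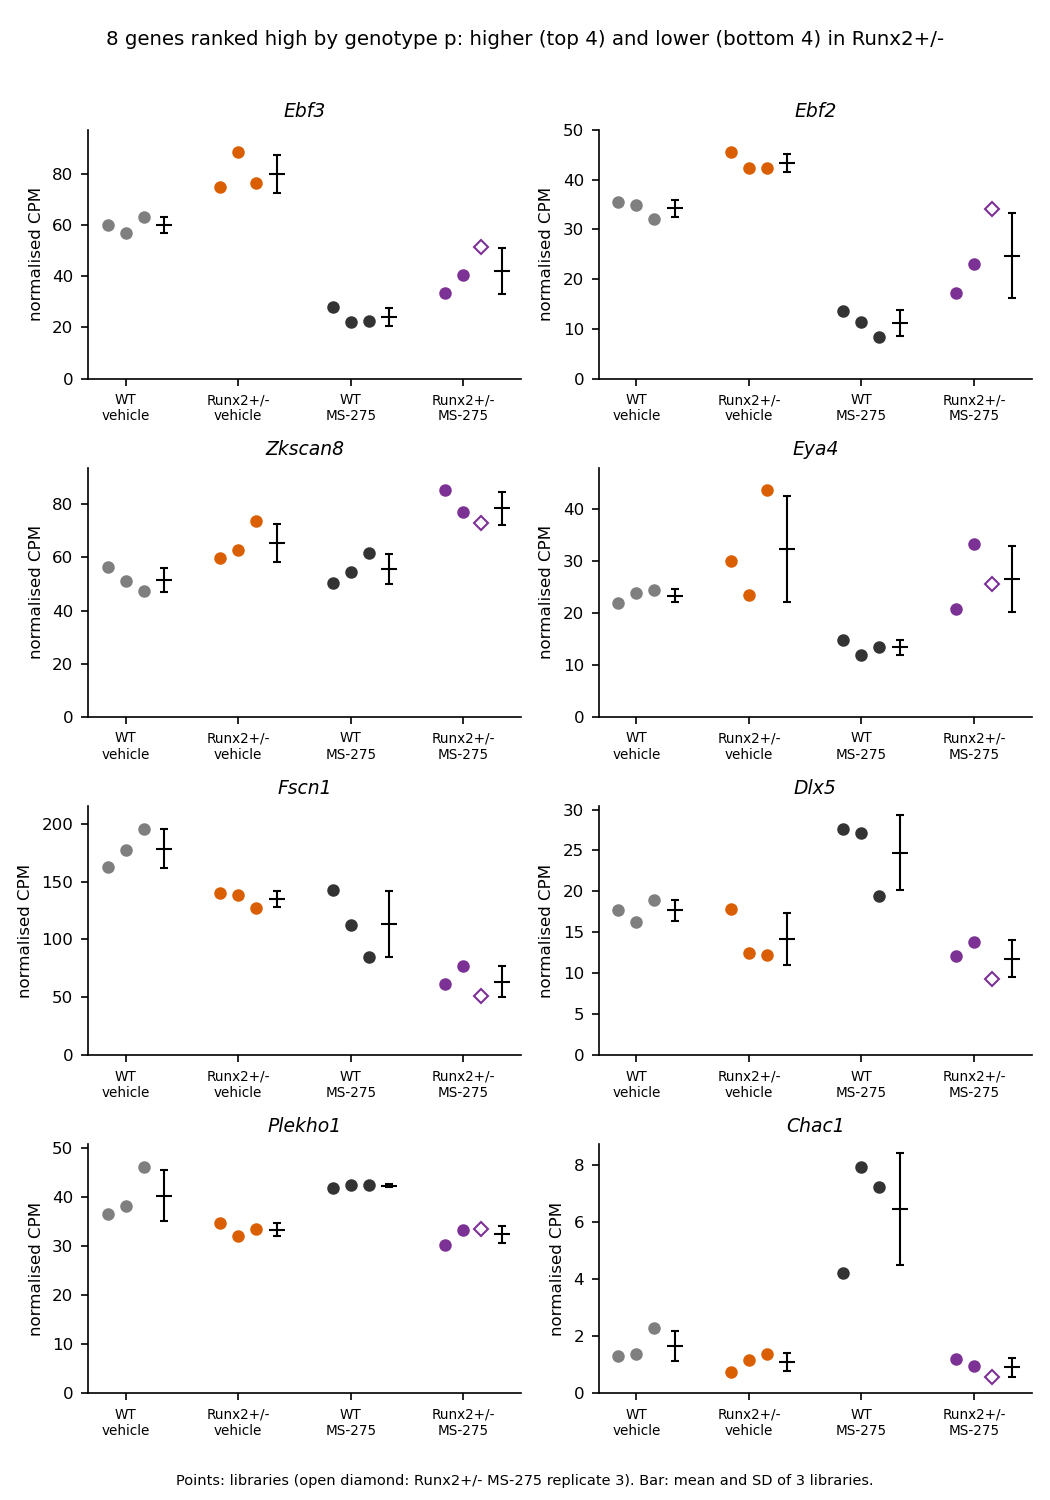
Normalised CPM (linear axes from 0) of 4 genes ranked higher (Ebf3, Ebf2, Zkscan8, Eya4) and 4 ranked lower (Fscn1, Dlx5, Plekho1, Chac1) in Runx2+/-, by group; points are libraries, the open diamond is Runx2+/- MS-275 replicate 3, and bars are the mean and SD of 3 libraries. Ebf3, Ebf2, Zkscan8, Fscn1 and Plekho1 do not overlap between genotypes in either treatment, and none of the 8 passed the adjusted threshold.

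Leaving out Runx2+/- MS-275 replicate 3 brought other genes into the rankings. Higher in Runx2+/- were Pla2r1, a receptor for secreted phospholipase A2 (0.63, against 0.54 with all 12 libraries), the adhesion molecule Alcam (0.65, against 0.49), butyrylcholinesterase Bche (0.77, against 0.59), Ostn (0.78, against 0.56) and the kinase Prkg1 (0.43, against 0.26). Ostn encodes osteocrin, a peptide secreted by bone and muscle, and measured 3.43, 3.52 and 3.02 CPM in WT and 6.57, 2.93 and 4.33 CPM in Runx2+/- in vehicle and 10.7, 12.7 and 13.1 CPM in WT and 26.4, 26.9 and 3.83 CPM in Runx2+/- in MS-275. Replicates 1 and 2 of Runx2+/- MS-275 lay above all WT libraries and replicate 3 lay with vehicle. Lower were Uqcrc1 and Cyc1 of respiratory complex III (-0.57 and -0.47), the trafficking adaptor Pheta1 (-0.61), the activin subunit Inhbb (-0.73) and the nuclear receptor Esrra (-0.53). The smallest adjusted p of this repeat, 0.925 by edgeR, held for all of them.

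Adipoq (adiponectin), also ranked lower with 11 libraries, changed sign with that library. It measured 0.0798, 20.5 and 16.9 CPM in WT with vehicle, 0.647, 0.732 and 0.102 CPM in Runx2+/- with vehicle, 0, 0 and 0.173 CPM in WT with MS-275 and 0, 0 and 31.7 CPM in Runx2+/- with MS-275, and its log2 fold change was 0.46 (SE 4.87) with 12 libraries and -4.59 with 11. The 3 libraries with more than 1 CPM were WT vehicle replicates 2 and 3 and Runx2+/- MS-275 replicate 3, and with libraries at 0 the fitted fold depends on the prior count. Of the 31 distinct genes in the 4 rankings, Adipoq was the 1 whose fold change lay on opposite sides in vehicle and in MS-275. Ranking by p over both treatments favours genes on the same side, so the agreement of the others is no separate result.

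Over all genes the genotype difference in vehicle resembled that in MS-275 weakly. The log2 fold changes of 17967 genes in vehicle and in MS-275, which share no library, had a Pearson correlation of 0.058 and a Spearman correlation of 0.139, and 56.2% lay on the same side. With 11 libraries these values were 0.172, 0.273 and 60.8%. These are descriptions across genes, which are not independent replicates. Genes whose 3 Runx2+/- libraries lay above the 3 WT libraries in both treatments numbered 77 (0.429% of those tested), and 47 (0.262%) lay below in both. Without Runx2+/- MS-275 replicate 3 the counts were 108 (0.601%) and 121 (0.673%). The 77 and the 47 are among them by construction, since leaving out a library cannot create an overlap. Of the 31 ranked genes, 13 were in these sets, which the ranking by p favours. The share of all genes that separate the genotypes in MS-275 alone was not counted. Such separations, here and in the lists below, therefore stand without a background share. In MS-275 15.8% of all genes had an unadjusted p below 0.05 by edgeR, or 7.7% without Runx2+/- MS-275 replicate 3.

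**Figure D3:**
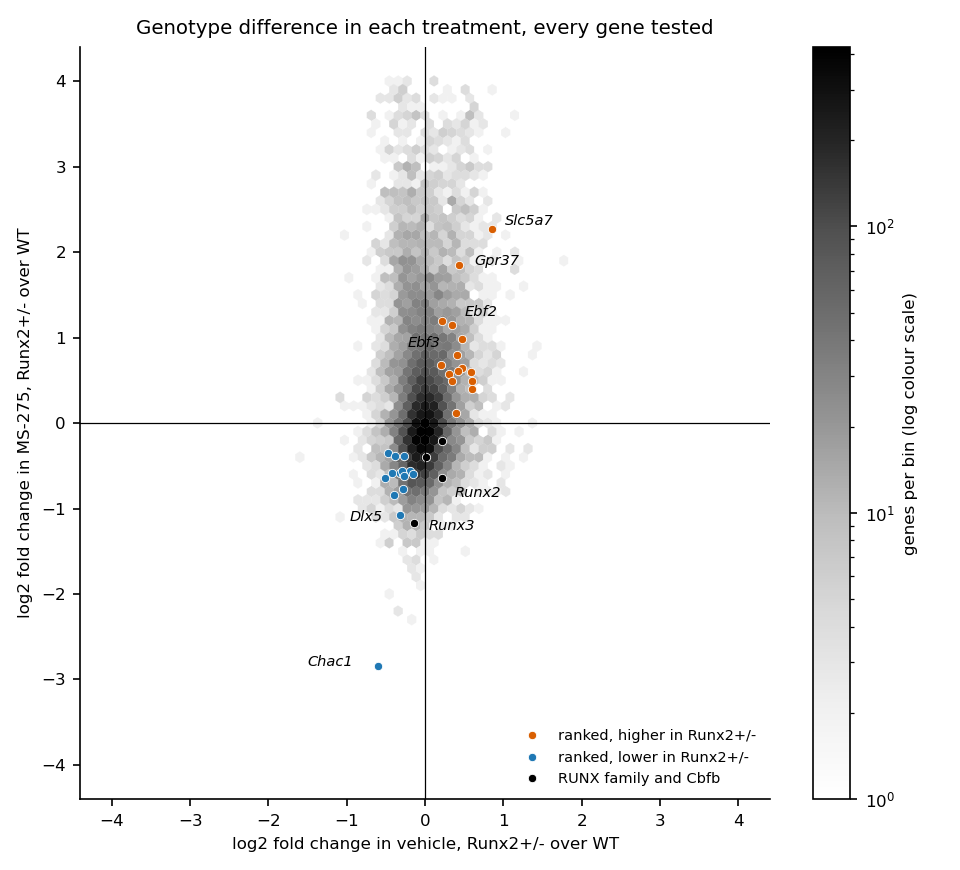
Log2 fold change, Runx2+/- over WT, in vehicle (x axis) against MS-275 (y axis) for every gene tested, as a density of genes per hexagon on a log colour scale, with the ranked genes and the RUNX genes as points; 487 genes beyond 4 on either axis are not drawn. The cloud is wider along the MS-275 axis than along the vehicle axis. The ranked genes drawn lie in the upper right or the lower left quadrant, which the ranking over both treatments favours.

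The direct RUNX2 target genes lay lower without passing. All 25 of the list were tested, 0 passed, and 1 (4%, beside 5.45% of all genes) had an unadjusted p below 0.05. Their median log2 fold change was -0.34, beside 0.04 for all genes. The list's medians were 0.02 in vehicle and -0.70 in MS-275, or -0.40 in MS-275 without Runx2+/- MS-275 replicate 3. Without that library the median over both treatments was -0.17, and 8 genes lay above 0 in place of 4. It was -0.62 without replicate 1 of the same group.

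Osteocalcin (Bglap) measured 4.03, 3.11 and 6.28 CPM in WT with vehicle, 6.57, 2.88 and 8.61 CPM in Runx2+/- with vehicle, 147, 178 and 188 CPM in WT with MS-275 and 202, 79.3 and 2.09 CPM in Runx2+/- with MS-275. Runx2+/- MS-275 replicate 3 was the lowest of all libraries, replicate 1 lay above and replicate 2 below the WT MS-275 range, and the log2 fold change moved from -0.24 (SE 0.71) to 0.09 without replicate 3. Reads of Bglap may be shared with its near-identical neighbour Bglap2. Osteopontin (Spp1) followed the same order of libraries, from -0.26 (SE 0.77) to 0.03, and bone sialoprotein (Ibsp) from -0.41 (SE 0.66) to -0.13. For these 3 matrix genes most of the difference rested on that 1 library.

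Sp7 and Alpl, a pair of osteoblast genes, stood below 0 with 12 and with 11 libraries. Sp7 (osterix), the factor that acts after RUNX2, measured 50.6, 31.6 and 70.3 CPM in WT with vehicle, 75.1, 25.5 and 42.4 CPM in Runx2+/- with vehicle, 202, 252 and 154 CPM in WT with MS-275 and 100.03, 80.0 and 20.2 CPM in Runx2+/- with MS-275. Each Runx2+/- MS-275 library lay below all WT MS-275 libraries, and the vehicle groups overlapped. Sp7 stood at -0.85 (SE 0.45) with 12 libraries and -0.56 with 11. Alpl, the phosphatase that starts mineralization, measured 382, 387 and 196 CPM in WT and 163, 152 and 31.2 CPM in Runx2+/- in MS-275 and stood at -0.73 (SE 0.46) and -0.44.

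Mmp13, a collagenase of late chondrocytes and osteoblasts, was the 1 target with an unadjusted p below 0.05 (0.0498, log2 fold change -1.62, SE 0.74, edgeR adjusted p = 0.755). Its MS-275 libraries measured 349.8, 745 and 577 CPM in WT and 113, 92.2 and 14.7 CPM in Runx2+/-, with no overlap, and its vehicle libraries 61.4, 57.1 and 119 CPM in WT and 129, 13 and 47.4 CPM in Runx2+/-, with overlap. Dmp1, a matrix protein of osteocytes, lay the other way, at 0.71 (SE 0.63), and at 0.95 with 11 libraries (unadjusted p = 0.0214). In MS-275 Dmp1 measured 167, 176 and 95.9 CPM in WT and 561, 256 and 10.7 CPM in Runx2+/-, so that replicates 1 and 2 of Runx2+/- were the highest of all libraries and replicate 3 the lowest.

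Structural genes of bone had a median further below 0 in MS-275 than in vehicle, a difference that was not tested for the list. In the bone matrix list 25 of 25 genes were tested, 0 passed and 0 had an unadjusted p below 0.05, with a median of -0.42 and 21 genes below 0. The medians were -0.05 in vehicle and -0.72 in MS-275, -0.42 there without replicate 3, and -0.19 over both treatments without it. Sparc (osteonectin) stood at -0.69 (SE 0.52), osteomodulin Omd at -0.62 (SE 0.70), periostin Postn at -0.02 (SE 0.36) and biglycan Bgn at -0.37 (SE 0.37). In the mineralization and early osteocyte list 16 of 19 genes were tested and 0 passed, with a median of -0.26, or -0.08 in the repeat. An unadjusted p below 0.05 was reached by 2 (12.5%, beside 5.45% of all genes). These 2 were Smpd3, a sphingomyelinase needed for mineralization (-0.88, SE 0.32), and the sphingosine-phosphate transporter Spns2 (-0.54, SE 0.17). In MS-275 Spns2 measured 53.7, 51.7 and 43.5 CPM in WT and 27.3, 23.8 and 31 CPM in Runx2+/- without overlap, and without replicate 3 its log2 fold change was -0.54.

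In bulk tissue, fewer cells of a type and less RNA per cell cannot be told apart, and other tissues in the dissected piece moved with these bone values. In MS-275 the summed epidermal markers (20 genes) ranged over 75 to 136 CPM in WT and 125 to 2349 CPM in Runx2+/-, and over 125 to 177 CPM there without replicate 3. Lens markers (15 genes) ranged over 57.4 to 73 CPM in WT and 95 to 891 CPM in Runx2+/- (95 to 132 without replicate 3, still above WT), and neuronal markers (20 genes) over 134 to 704 and 228 to 2552 CPM (228 to 401 without replicate 3). The defining keratins Krt5 and Krt14 had counts in every library, at 2.62 CPM or less in each MS-275 library but replicate 3 of Runx2+/-, where they measured 270.3 and 189.6 CPM. The part of these tissues in the bone values was not tested.

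**Figure D4:**
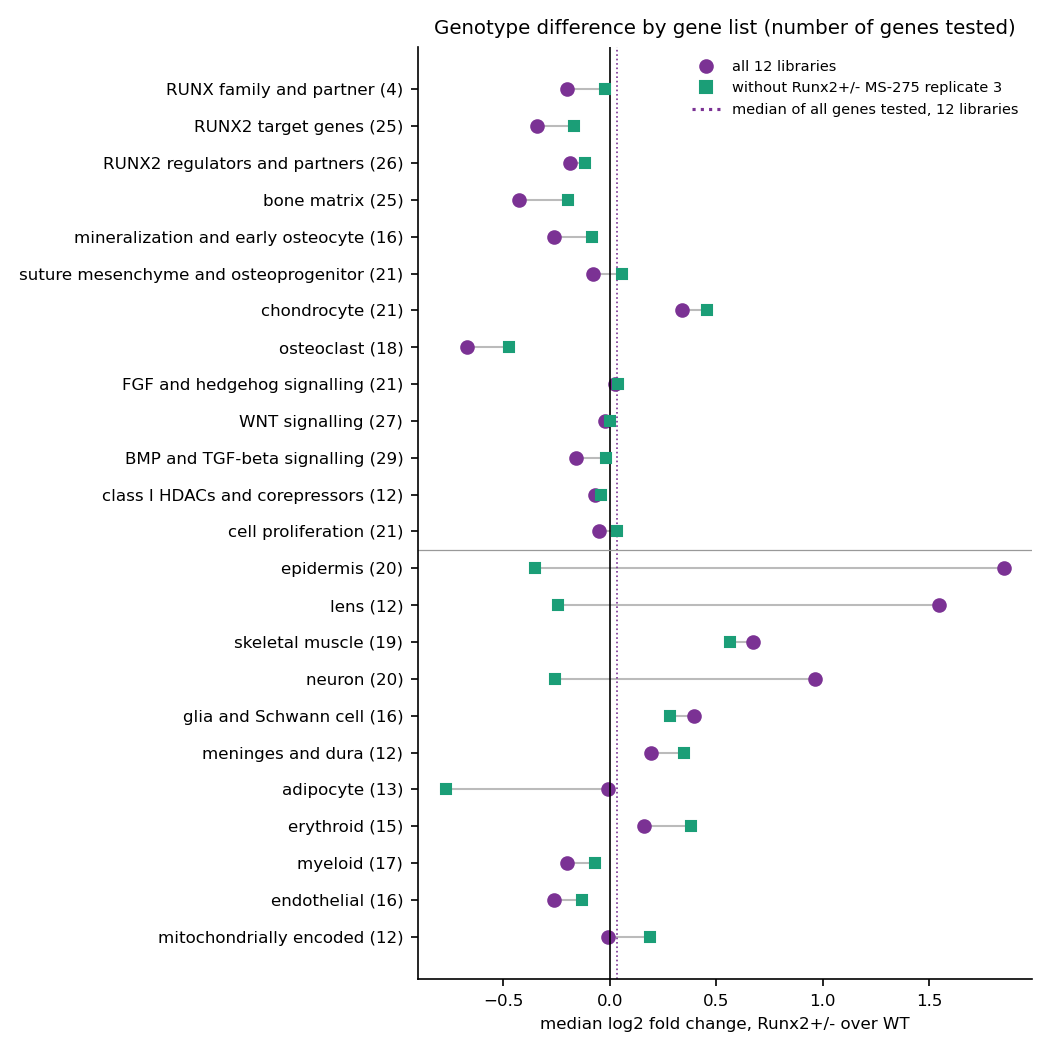
Median log2 fold change, Runx2+/- over WT, of each gene list, with all 12 libraries (circles) and without Runx2+/- MS-275 replicate 3 (squares); the number of genes tested stands in brackets, the dotted line is the median of all genes, and lists below the thin line are markers of other tissues or of mitochondria. Bone lists move toward 0 in the repeat (bone matrix from -0.42 to -0.19), and epidermis (1.85 to -0.35), lens (1.54 to -0.24) and neuron (0.96 to -0.25) change sign.

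Regulators and partners of RUNX2 had the highest share of small p among the bone lists. Of 26 genes tested, 0 passed, and 5 (19.2%, beside 5.45% of all genes) had an unadjusted p below 0.05: Dlx5, Dlx6, Atf4 and Cebpb lower, and Zbtb16 higher. The list was chosen with earlier results of these data known, and its median was -0.18 with 22 genes below 0, or -0.12 with 11 libraries. Dlx6, the neighbour and relative of Dlx5, measured 21.3, 27.2 and 19.8 CPM in WT and 14.5, 12.4 and 9.27 CPM in Runx2+/- in MS-275 with no overlap and stood at -0.48 (SE 0.20). Cebpb, a factor that cooperates with RUNX2 and ATF4, measured 4.43, 4.34 and 2.50 CPM in WT and 1.39, 1.60 and 1.22 CPM in Runx2+/- in MS-275, again without overlap (-0.79, SE 0.32). Zbtb16 (PLZF), a zinc-finger factor of mesenchymal progenitors, measured 9.01, 10.3 and 9.34 CPM in WT with vehicle, 10.5, 10.8 and 10.5 CPM in Runx2+/- with vehicle, 7.68, 5.32 and 5.00 CPM in WT with MS-275 and 8.54, 12.3 and 14.3 CPM in Runx2+/- with MS-275 and separated the genotypes in both treatments (0.55, SE 0.21).

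Neither Twist1 nor Msx2 of this list reached an unadjusted p of 0.05. The RUNX2 inhibitor Twist1 stood at -0.58 (SE 0.44) and the suture factor Msx2 at -0.22 (SE 0.44). Without replicate 3 of Runx2+/- MS-275, Twist1 stood at -0.35 and Msx2 at 0.03. Suture mesenchyme and osteoprogenitor genes (21 tested, 0 passed) had a median of -0.08, which became 0.06 in the repeat and 0.04 under scaling by library size without TMM factors. An unadjusted p below 0.05 was reached by 1 of them (4.76%, beside 5.45% of all genes). The progenitor markers Prrx1, Axin2, Alx4 and Six2 stood at -0.08, 0.26, -0.17 and -0.10, with SEs from 0.25 to 0.44. The 1 gene of that list was Thy1, a surface antigen of mesenchymal cells, which measured 49.8, 56 and 57.1 CPM in WT and 29.4, 24.3 and 13.7 CPM in Runx2+/- in MS-275 without overlap (-0.88, SE 0.28).

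Cartilage genes lay higher in Runx2+/-, against the direction of the bone lists. Of 21 chondrocyte genes tested, 0 passed and 14 lay above 0, with a median of 0.34. The median was 0.25 in vehicle and 0.38 in MS-275 (0.86 without replicate 3), and 0.46 over both treatments in the repeat. There 17 genes lay above 0 and 4 of the 21 had an unadjusted p below 0.05 (beside 5.03% of all genes), all higher. With replicate 2 of Runx2+/- MS-275 left out in place of replicate 3, the median was 0.06. The 4 genes were Sox9, Matn1, Matn3 and Hapln1. The list's summed level in MS-275 ranged over 2670 to 4692 CPM in WT and 603 to 5412 CPM in Runx2+/-. The genotypes overlapped, also when replicate 3 is left out (4403 to 5412 CPM in Runx2+/-).

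Sox9, the master factor of chondrocytes, measured 17, 19.2 and 22.1 CPM in WT with vehicle, 19.8, 18.2 and 33.4 CPM in Runx2+/- with vehicle, 18, 16.7 and 13.7 CPM in WT with MS-275 and 22.7, 28.4 and 12.1 CPM in Runx2+/- with MS-275. Replicate 3 of Runx2+/- MS-275 was the lowest of all 12 libraries and the other 2 Runx2+/- MS-275 libraries lay above all WT MS-275 libraries. Sox9 stood at 0.34 (SE 0.22) with 12 libraries and 0.46 with 11. The link protein Hapln1 measured 232, 261 and 265 CPM in WT and 512, 441 and 18.6 CPM in Runx2+/- in MS-275 and moved from 0.38 (SE 0.53) to 0.63 in the repeat (unadjusted p = 0.00698, edgeR adjusted p = 0.925). Collagen II (Col2a1) varied widely within groups, with 548, 206 and 115 CPM in WT and 452, 813 and 82.3 CPM in Runx2+/- in MS-275, and stood at 0.41 (SE 0.56). Pth1r, the receptor for parathyroid hormone in both cartilage and bone, was the exception of the list with an unadjusted p of 0.0339 and a lower value (-0.87, SE 0.36).

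Osteoclast genes had the lowest median of the bone lists. Of 18 genes tested 0 passed, 17 lay below 0, and the median was -0.67, or -0.47 with 11 libraries. In vehicle the median was -0.12 and in MS-275 -1.18 (-0.94 without replicate 3). The summed level of the list in MS-275 ranged over 2067 to 2443 CPM in WT and 298 to 1262 CPM in Runx2+/-, without overlap, also when replicate 3 is left out (792 to 1262 CPM). In vehicle the ranges of 427 to 705 CPM in WT and 311 to 691 CPM in Runx2+/- overlapped. How often genes or lists separate in MS-275 alone was not counted.

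Ctsk (cathepsin K), the collagen-degrading protease of osteoclasts, measured 112, 101 and 244 CPM in WT with vehicle, 237, 50.4 and 129 CPM in Runx2+/- with vehicle, 1095, 1512 and 1650.3 CPM in WT with MS-275 and 773, 391 and 47.4 CPM in Runx2+/- with MS-275. All 3 Runx2+/- MS-275 libraries lay below WT MS-275, and the vehicle libraries overlapped. The log2 fold change of Ctsk was -0.97 (SE 0.63), -0.63 in the repeat. Acp5 (tartrate-resistant acid phosphatase) stood at -1.38 (SE 0.71). The 2 genes with an unadjusted p below 0.05 (11.1%, beside 5.45% of all genes) were Ocstamp, a fusion protein (-1.46, SE 0.59), and the integrin Itgb3 (-0.81, SE 0.36). With 11 libraries 0 genes of the list had an unadjusted p below 0.05. Tnfsf11 (RANKL), the cytokine that osteoblast-lineage cells use to induce osteoclasts, stood at -1.01 (SE 0.54) and -0.68, with 9.70, 14.8 and 10.9 CPM in WT and 4.46, 4.15 and 0.783 CPM in Runx2+/- in MS-275.

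Signalling pathways of the sutures had medians nearer to that of all genes than the bone matrix and osteoclast lists. FGF and hedgehog genes (21 tested, 0 passed) had a median of 0.03, WNT genes (27 tested, 0 passed) -0.02 (0.13 under library-size scaling), and BMP and TGF-beta genes (29 tested, 0 passed) -0.16, or -0.02 in the repeat. At an unadjusted p below 0.05 stood the ligand Fgf9 (0.52, SE 0.20), the WNT-enhancing receptor Lgr5 (0.85, SE 0.30), the BMP receptor Bmpr1b (0.95, SE 0.31) and the BMP antagonist Nog (-0.73, SE 0.31). These were 4.76% of the FGF and hedgehog, 3.70% of the WNT and 6.90% of the BMP and TGF-beta genes, near the 5.45% of all genes. Bmpr1b measured 5.08, 3.36 and 3.54 CPM in WT and 7.71, 13.7 and 17.8 CPM in Runx2+/- in MS-275, where the genotypes did not overlap, and 18.5, 16.4 and 12.6 CPM in WT and 16.8, 19.2 and 19.5 CPM in Runx2+/- in vehicle, where they did. Noggin (Nog) measured 10.1, 8.84 and 9.75 CPM in WT and 4.18, 5.42 and 1.78 CPM in Runx2+/- in MS-275, with all Runx2+/- libraries below WT.

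The genes that head these lists had unadjusted p of 0.05 or more. Fgfr1 stood at -0.25 (SE 0.17), the FGF inhibitor Spry2 at 0.03 (SE 0.23), beta-catenin (Ctnnb1) at -0.32 (SE 0.26), Lef1 at 0.21 (SE 0.28), Bmp2 at -0.52 (SE 0.32) and Bmp4 at -0.05 (SE 0.37). Class I histone deacetylases and their corepressors (12 tested, 0 passed, median -0.07, or 0.12 under library-size scaling) included Hdac1 at -0.06, Hdac2 at -0.08, Hdac3 at -0.01 and Hdac8 at -0.09, with SEs of 0.08 to 0.20. Proliferation genes (21 tested, 0 passed) had a median of -0.05 (0.05 under library-size scaling), with Mki67 at 0.21 (SE 0.15) and Top2a at 0.14 (SE 0.20).

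The summed markers of muscle separated the genotypes in MS-275. The summed level of 20 skeletal muscle genes ranged over 698 to 3716 CPM in WT MS-275 and 5421 to 7107 CPM in Runx2+/- MS-275 (7054 to 7107 without replicate 3), without overlap. In vehicle it ranged over 4301 to 8101 CPM in WT and 2359.7 to 7354 CPM in Runx2+/-, with overlap. The part of muscle in the other results was not tested. The list's median was 0.67 (19 tested, 0 passed), or 0.57 with 11 libraries, and 17 of its genes lay above 0 in both. Without WT MS-275 replicate 3 the median was 0.37. Muscle creatine kinase (Ckm) measured 153, 37.9 and 17 CPM in WT and 244, 276 and 249 CPM in Runx2+/- in MS-275, and titin (Ttn) 221, 93.2 and 51.8 CPM in WT and 537, 498 and 769 CPM in Runx2+/-. Their log2 fold changes were 0.79 (SE 0.60) and 1.18 (SE 0.57).

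Endothelial genes all lay lower, by little. All 16 were tested, 0 passed, all 16 lay below 0 with 12 libraries and 13 with 11, and the median moved from -0.26 to -0.13. Cldn5, a tight-junction protein of vessels of the brain and its coverings, measured 18.5, 22 and 29.7 CPM in WT with vehicle, 16.6, 14.9 and 13.2 CPM in Runx2+/- with vehicle, 22.9, 21.2 and 19.8 CPM in WT with MS-275 and 19.5, 17.1 and 11 CPM in Runx2+/- with MS-275. It was the 1 gene of the list that separated the genotypes in both treatments (-0.54, SE 0.17, unadjusted p = 0.00769, edgeR adjusted p = 0.755). Pecam1, Cdh5 and Kdr stood at -0.10, -0.27 and -0.13.

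In the remaining marker lists 0 genes passed. Median log2 fold changes with 12 and with 11 libraries were 1.85 and -0.35 for epidermis, 1.54 and -0.24 for lens, and 0.96 and -0.25 for neurons. They were 0.39 and 0.28 for glia, 0.19 and 0.35 for meninges, -0.01 and -0.77 for adipocytes, 0.16 and 0.38 for erythroid cells, -0.20 and -0.07 for myeloid cells and -0.01 and 0.19 for mitochondrially encoded genes. In the repeat 5 of 13 adipocyte genes tested had an unadjusted p below 0.05 (beside 5.03% of all genes), all lower. The adipocyte median was -1.47 in vehicle but 0.31 in MS-275 without Runx2+/- MS-275 replicate 3. The list summed to 497 and 388 CPM in WT vehicle replicates 2 and 3 and to 143 CPM in replicate 1. In Runx2+/- vehicle it summed to 133 to 176 CPM. Under library-size scaling 2 lists close to 0 stood at 0.23 (adipocytes) and 0.06 (mitochondrially encoded). Epcam, an epithelial adhesion molecule, was the epidermal gene that separated the genotypes in both treatments: it measured 38.8, 35.5 and 38.3 CPM in WT with vehicle, 48.8, 44.3 and 45.4 CPM in Runx2+/- with vehicle, 4.04, 1.47 and 1.64 CPM in WT with MS-275 and 7.34, 39.2 and 32 CPM in Runx2+/- with MS-275, so that its high Runx2+/- MS-275 libraries were replicates 2 and 3. Neurofilaments Nefl and Nefm stood at 1.31 (SE 0.55) and 1.13 (SE 0.50), each with an unadjusted p below 0.05 and with groups that overlapped in vehicle. They were the 2 neuronal genes below that level (10% of 20, beside 5.45% of all genes). With 11 libraries 0 genes of the neuronal list were.

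Genes around Runx2 on chromosome 17 were described as a group, as neighbours of the altered gene. Of 222 genes tested within 10 Mb, 0 passed and 16 (7.21%, beside 5.45% of all genes) had an unadjusted p below 0.05, 4 higher and 12 lower. With 11 libraries 15 did, 7 higher and 8 lower. On the rest of the chromosome the share was 3.85% of 624 genes. The median of the 222 genes was 0.04, or -0.05 with 11 libraries.

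Supt3, the coding gene that overlaps Runx2, stood at -0.17, or 0.01 with 11 libraries. The 3 nearest protein-coding genes on each side that do not overlap Runx2 stood at 0.29 (Clic5), 0.29 (Enpp4), 0.15 (Enpp5), -0.08 (Cdc5l), 0.47 (Spats1) and 0.08 (Aars2), none with an unadjusted p below 0.05. Of the 16 genes, 10 lay at 1 end of the window, in and beside the major histocompatibility complex, where many genes lie: 92 of the 222 start more than 8 Mb before Runx2 (10.9% of them with an unadjusted p below 0.05). With 11 libraries 7 of the 92 did. The 10 were Apom, which stood higher, and 9 that stood lower, among them H2-D1, a class I antigen-presenting molecule (log2 fold change -0.70, SE 0.24), which separated the genotypes in both treatments. Its fold change was -0.53 with 11 libraries. The smallest unadjusted p of the window belonged to a gene at the other end, Slc5a7 (0.00212 by edgeR, 9484 kb from the Runx2 start). It is the choline transporter described among the genes ranked higher. Efhb, at 8649 kb, also stood higher (1.13, unadjusted p = 0.00492 by edgeR). The antisense transcript Runx2os1 stood at 1.43 (SE 0.67, unadjusted p = 0.0542).

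**Figure D5:**
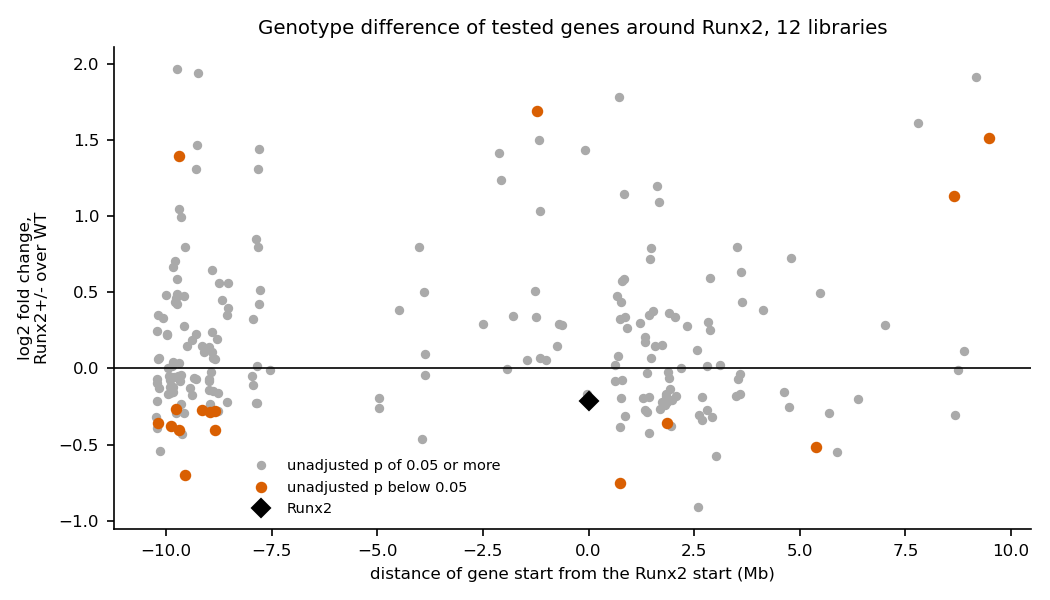
Log2 fold change, Runx2+/- over WT, of the tested genes within 10 Mb of Runx2 (y axis) by the distance of their start from the Runx2 start in Mb (x axis); orange points have an unadjusted p below 0.05 and the diamond is Runx2 at -0.21. The orange points lie on both sides of 0, with 9 of the 12 lower ones at the far left of the window.

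Promoters with the RUNX core did not stand apart. Of the genes tested, 13052 had a promoter window in the RefSeq table, and TGTGGT was sought on both strands of the 300 bases. Across the RefSeq windows, 16.8% of 32851 held at least 1 match and 1.81% held 2 or more. The median log2 fold change was 0.02 for 11053 genes with no match, 0.03 for 1814 genes with 1 match and 0.06 for 185 genes with 2 or more, beside 0.02 for all genes with a window. The 8 genes with 2 or more matches and an unadjusted p below 0.05 were 4.32% of that class. The share was 4.74% with 1 match, 5.45% with no match and 5.33% of all genes with a window. Runx1 and Runx3 had windows with 2 matches and Cbfb had 0. Of the 20 genes ranked with 12 libraries, Gpr37 and Atp6v0b had 1 match. A match describes these letters in this window, not binding.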

How the data were processed

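RNA-seq libraries of calvariae from 12 samples in 4 groups (3 each) were made from Trizol extracts with a stranded total RNA kit and sequenced on a NextSeq 500, per the labels' protocols and design text. The deposited values are raw counts per Ensembl gene and sample, and the submitters' processing notes name Trimmomatic, Bowtie2, SAMtools and HTSeq, without versions. They name the build GRCh38.p7, although the identifiers are those of mouse genes. The sources used here do not state whether reads were counted by strand, so reads of overlapping antisense genes cannot be told apart. Each file held 39179 gene identifiers, of which 37607 had a symbol, and 5 summary entries that were left out of library sizes and tests. Uniquely aligned reads in no gene made up 5.21% to 22.2% of those in a gene, no gene or an ambiguous place. Mitochondrially encoded genes took 4.32% to 24.2% of the counts in genes.

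Counts were fitted with edgeR 4.0.16 (R 4.3.3; filterByExpr on the 4 groups, TMM scaling, robust quasi-likelihood F test) as treatment plus genotype, and Benjamini-Hochberg adjusted p-values below 0.05 were called. Fold changes are Runx2+/- over WT, and CPM are scaled by TMM. The RUNX genes were also compared by an exact permutation test of log2(CPM + 1) within treatments. The interaction and the values within each treatment came from 4 group means. Alternatives used DESeq2 1.42.0, limma 3.58.1 (voom), sva 3.50.0, other scalings and filters, covariates and left-out libraries. The edgeR fit was tested on simulated counts. Genes named are the RUNX genes, 10 a direction by smallest p with 12 and with 11 libraries (mean of at least 1 CPM; predicted, clone-named, pseudogene, Xist, Tsix and Y-linked genes left out, 23 among the 100 smallest p), the first 4 of each list, and the 3 nearest non-overlapping coding genes on each side of Runx2. One listed gene is not reported here. Other genes named, such as list members with an unadjusted p below 0.05, were chosen after their values were seen. The comparison, the gene lists and their members were chosen with earlier results of these data known. Same-numbered libraries were not treated as pairs. Symbols and gene positions were matched by identifier to GENCODE vM21 (GRCm38). Promoter windows and sequences are from RefSeq (GRCm38.p6).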

Additional observations from a re-analysis of the deposited data

Results flagged for a closer look

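Reads outside annotated genes, which enter no comparison of the report, made up 22.2% in Runx2+/- MS-275 replicate 3. The other MS-275 libraries had 5.21% to 8.65%, and the vehicle libraries had 10.5% to 16.8%, so that this library lay above every control library. It is also the library whose epidermal, lens and neuronal marker sums lay within the vehicle range. Results of the report are given with and without it.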

How the results depend on the processing

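The genotype comparison called 0 genes in every alternative run, with 12 and with 11 libraries. Unadjusted p below 0.05 numbered 259 with a Y-linked covariate and 2044 with 2 surrogate variables, against 979. With the replicate number as a block, the genotype comparison called 0 genes (672 at an unadjusted p below 0.05), the interaction called 0, and Runx2 stood at -0.23. Same-numbered libraries of the 2 genotypes deviated together in 4 of 6 pairs (r from -0.29 to 0.84). In vehicle, r was 0.81 for replicates 2 and 0.84 for replicates 3. Each library was also compared with the 3 libraries of the other genotype in its own treatment. Of 12 libraries, 7 correlated best there with their own number. Pairs across treatments did not enter this count. The main fit did not block the numbers because the labels do not say that they pair samples. Whether the numbers mark a shared batch was not tested. The interaction moved from 0 to 40 genes with DESeq2, to 606 with limma-voom and quality weights, to 7 with DESeq2 and 11 libraries (chosen after seeing the data; 0 with limma-voom) and to between 0 and 1 when single libraries were left out. The 1 gene was Lrp2 without Runx2+/- MS-275 replicate 1 (edgeR adjusted p = 0.0141), named after its value was seen. The cause was not tested. Runx2 stood at 0.22 in vehicle libraries alone. Genes lower in both treatments without overlap numbered 121 with 11 libraries, against 47, and genes higher in both numbered 108, against 77. Leaving out a library cannot lower these counts. Why they rose unequally was not tested. Scaling by library size alone moved the median of all genes from 0.04 to 0.22. Of 2935 values of 128 named genes in alternatives, 63 (35 genes) moved by more than the standard error, and of 552 list medians 25 (10 lists) did. With 3 libraries a group and a median standard error of 0.26, small differences were not detectable, and Xist-high libraries were unevenly spread over the genotypes.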

Other observations

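Gene families picked after the values were seen are given here as descriptions. The 4 early B-cell factor genes all stood higher in Runx2+/-, with Ebf1 at 0.30 and Ebf4 at 0.37 (log2) beside Ebf2 and Ebf3, a median of 0.48 with 12 libraries and 0.41 with 11. Of these 4 genes, picked because Ebf3 and Ebf2 ranked high, 3 had an unadjusted p below 0.05 (beside 5.45% of all genes) and 0 passed edgeR's adjusted threshold. The 80 nuclear genes of the respiratory chain and ATP synthase had a median of -0.21, with 74 below 0 and 0 past the threshold, or -0.08 with 11 libraries, where 22 lay above 0. The smallest p among them belonged to Uqcrc1 and Cyc1 of complex III, Ndufs7 of complex I (-0.37) and Atp5d of ATP synthase (-0.51). The 6 distal-less homeobox genes had a median of -0.19, or -0.46 with 11 libraries.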
